A study of Mus musculus with 6 samples.

Results

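Solute carriers are membrane proteins that move amino acids, sugars, metals, nucleosides, ions and vitamins across the cell surface and the membranes of organelles. They were taken here as every probe whose annotated symbol begins with Slc followed by a family number, a letter and a member number. Of 25697 probes on the array, 472 carried such a symbol, for 324 genes. A probe is described where its detection p-value, the chance of such a signal from negative-control beads, was under 0.05 on at least 2 of the 6 arrays. That left 212 probes of 164 genes, out of 9010 named genes that passed the same filter and were tested. The brightest probe of each gene stands for it. Among the 164 genes, 4 match the symbol pattern without encoding a transporter: Slc9a3r1, Slc9a3r2, Slc7a6os and Slc4a1ap.

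The cells were primary vascular smooth muscle cells, the contractile cells of the vessel wall, from C57BL/6J mice of 8 weeks. They were infected with lentivirus and kept for 2 days in puromycin, which kills cells that lack the virus, and their RNA was taken after 5 days and hybridised to Illumina bead arrays. The 6 arrays form 3 groups of 2 replicates, A and B, which the study's design text calls biological: mir128, which received miR-128, and shScr1 and shScr2, which both carry the genotype label scrambled miRNA. The labels do not say how shScr1 and shScr2 differ, which vessel the cells came from or which promoter drives the miRNA. Beyond the word biological, nothing says whether the replicates are separate cultures or animals. The p-values therefore measure only the spread between these arrays, whose source is not known. The level of miR-128 itself was not measured here.

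A microRNA pairs through its seed, bases 2 to 8 from its 5′ end, with messenger RNAs and lowers their stability or translation. A change in a transporter's messenger can therefore follow directly or through other genes, and these arrays do not separate the routes. The mature strands of miR-128 are shown because they are the agent that sets mir128 apart from the scrambled groups. They are given from RefSeq (GRCm38.p6), with the seed in capitals. The labels do not say which locus or strand was cloned. The 3p strand is identical from both loci, Mir128-1 at chr1:128202404-128202424 on the plus strand and Mir128-2 at chr9:112118644-112118664 on the minus strand.
mmu-miR-128-3p: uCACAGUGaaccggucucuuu
mmu-miR-128-1-5p: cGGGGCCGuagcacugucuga
mmu-miR-128-2-5p: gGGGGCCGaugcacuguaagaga
The 5p strands share the seed letters GGGGCCG and differ downstream of it, and neither shares the seed of the 3p strand.

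The array of mir128 A was the brightest, with an upper intensity quartile of 373 (201 to 252 elsewhere), and gave 13277 detected probes where the other 5 arrays gave 11589 to 12343. Solute carrier probes followed, with 225 detected on mir128 A and 181 to 199 on the others. Replicates A and B differed with an SD, over all genes, of 0.527 on the log2 scale in mir128, 0.283 in shScr1 and 0.310 in shScr2. Of 8 smooth muscle markers, 7 were detected on at least 1 array, and Cnn1 on none. Acta2, Tagln, Cald1 and Smtn were detected on all 6 arrays. Myh11 was detected on both mir128 arrays and no scrambled array. Lmod1 was detected on 1 scrambled and both mir128 arrays, and Des on 2 scrambled arrays and 1 mir128 array. Tagln ran from 4.90 to 5.57 on scrambled arrays and was at 9.79 and 10.13 on mir128 arrays. The log2 of the sum over the 8 ran from 13.5 to 14.4 on scrambled arrays and from 14.6 to 15 on mir128 arrays. Acta2 alone ran from 13.4 to 14.3 and from 14.4 to 14.8. Of 7 leukocyte markers, 5 were on the array and 2 were detected, Lyz2 and Cd3e, while Ptprc, Adgre1 and Itgam were detected on no array. The log2 of the summed leukocyte level ran from 6.85 to 7.19 on scrambled and from 7.59 to 8.25 on mir128 arrays. Of 7 endothelial markers, 2 were detected (Kdr and Tek), with a log2 sum of 7.43 to 7.64 on scrambled and 7.35 to 7.5 on mir128 arrays. All 5 fibroblast markers were detected (10.5 to 11.6 and 11 to 11.4), and 0 of 4 adipocyte markers.

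Detection split the solute carriers sharply. On no array were 209 of the 472 probes detected, 51 were detected on 1 array, and 154 on all 6. Of the 164 genes described, 123 had a brightest probe detected on all 6 arrays.

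**Figure D1:**
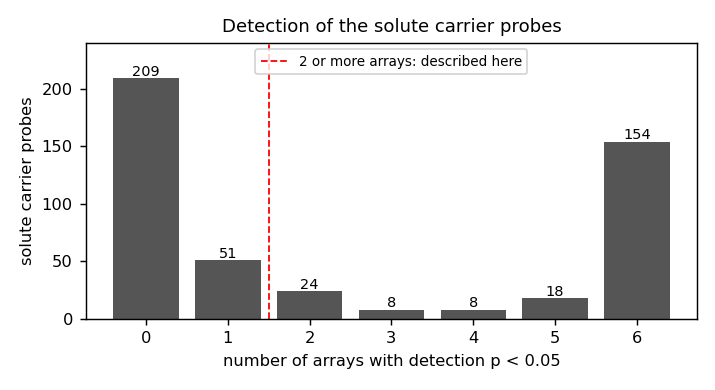
The bars give the number of solute carrier probes (vertical axis) by the number of arrays, 0 to 6, on which the probe had a detection p-value under 0.05. Of the 472 probes, 209 were detected on no array and 154 on all 6, and those right of the dashed line are the 212 described.

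The first question was which transporters differed in cells with miR-128 from each scrambled group. Against shScr1, 25 of the 164 genes were higher and 18 lower at an adjusted p under 0.05 (limma across the 9010 genes, Benjamini-Hochberg), which is 15.2% and 11% of them, where the share among all genes tested was 12.3% higher and 10.7% lower. Against shScr2, 23 were higher and 13 lower, 14% and 7.93%, where all genes gave 12% and 10.1%. Against both scrambled groups, 16 genes were higher and 9 lower, where all genes gave 8.61% and 7.37%. These shares lie near the background, so the counts are no result about transporters as a class. The counts by substrate group below are small, and no group was tested as a set. The shares of all genes given beside them are for calls against both groups. For a single comparison, the shares of all genes are those above. Of the 16 genes higher against both groups, Slc9a7, Slc12a1 and Slc14a1 passed the detection filter only through the mir128 arrays, which fixes their being higher. The median log2 change of the 164 genes was 0.11 against shScr1 and 0.07 against shScr2, beside 0.00029 and 0.0013 over all genes. In bulk RNA, fewer cells of a type and less RNA per cell cannot be told apart.

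Both mir128 arrays lay above all 4 scrambled arrays for 46 genes and below them for 28, and overlapped them for 90. Over all genes those shares were 24.3% above and 22.8% below, against 28% and 17.1% of the solute carriers. Between shScr2 and shScr1, 0 of the 164 genes passed in limma, where all genes gave 0.0222% higher and 0.0666% lower. Fitted in limma on the 4 scrambled arrays alone, 0 of the 164 were higher and 3 lower, where 91 and 137 of the 9010 genes were. At an unadjusted p under 0.05 in limma, 10 of the 164 were higher and 12 lower in shScr2, where 487 and 552 of the 9010 genes were.

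**Figure D2:**
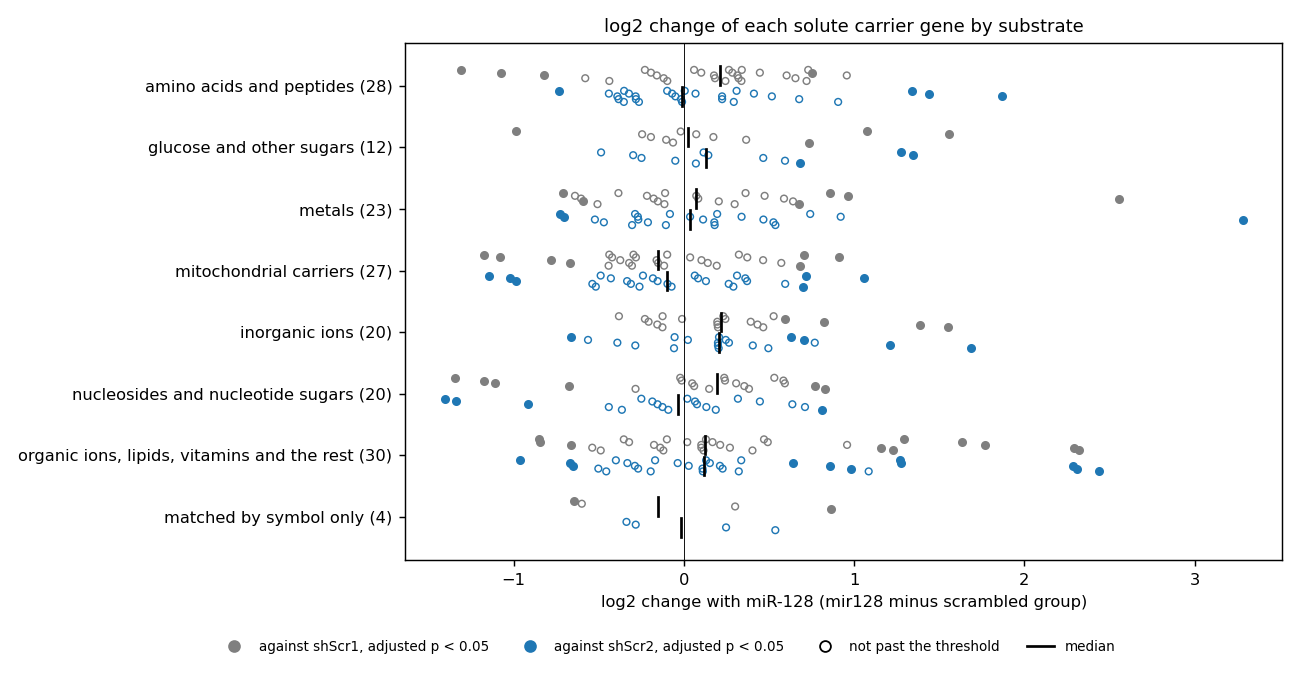
Each point is a solute carrier gene, placed by its log2 change (horizontal axis, mir128 minus the scrambled group) in rows by substrate, with the number of genes tested in brackets. Filled points pass an adjusted p under 0.05 against shScr1 (grey) or shScr2 (blue), open points do not, and black bars mark the medians. The median bars lie between −0.15 and 0.22, and Slc40a1 in the metal row is the point farthest to the right in both comparisons.

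Metal transporters gave the largest rise among the genes that passed against both groups. Slc40a1 encodes ferroportin, the iron exporter of vertebrate cells. Its log2 level was 5.52 and 5.49 on the shScr1 arrays, 4.98 and 4.57 on the shScr2 arrays, and 8.81 and 7.31 on the mir128 arrays. Both mir128 arrays were above all scrambled arrays, and the mir128 arrays differed from each other more than the scrambled ones did. The log2 change was 2.56 ± 0.45 (SE), 5.88-fold, against shScr1 (adjusted p = 0.0124), and 3.28 ± 0.45, 9.73-fold, against shScr2 (adjusted p = 0.00662). The gene was detected on 1 of the 2 shScr2 arrays, so the fold against that group rests partly on a background level. On the values the authors processed it did not pass against both groups. Ferroportin is abundant in macrophages. Of the leukocyte markers, Lyz2 and Cd3e were also higher on mir128 arrays, while Ptprc, Adgre1 and Itgam were detected on no array. The part of leukocytes in the result was not tested.

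Of 23 metal transporters, Slc40a1 alone passed against both groups (8.61% higher and 7.37% lower among all genes). Against shScr1, 4 were higher and 2 lower, and against shScr2, 1 was higher and 2 lower. The medians were 0.07 and 0.04. Slc39a6, a zinc importer of the ZIP family, had a log2 change of 0.86 ± 0.21 against shScr1 (adjusted p = 0.0322) and 0.54 ± 0.21 against shScr2 (adjusted p = 0.118). Slc11a1, the natural-resistance-associated metal transporter of phagocyte vesicles, stood at 0.68 ± 0.15 (adjusted p = 0.0253) and 0.18 ± 0.15 (adjusted p = 0.439), beside the leukocyte marker levels given above, whose part was not tested. A second Slc11a1 probe, detected on 2 arrays, gave 0.03 and 0.25 and did not pass. Slc41a2, a magnesium transporter, stood at 0.96 ± 0.26 (adjusted p = 0.0429) and 0.92 ± 0.26 (adjusted p = 0.0503).

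On the lower side, Slc48a1, which moves haem out of endosomes, had a log2 change of −0.71 ± 0.16 against shScr1 (adjusted p = 0.0256) and −0.52 ± 0.16 against shScr2 (adjusted p = 0.0632). Slc41a3, of the magnesium transporter family, stood at −0.64 ± 0.18 (adjusted p = 0.0506) and −0.73 ± 0.18 (adjusted p = 0.0364), while its second probe gave 0.06 and −0.34 and did not pass. Slc30a8, a zinc transporter of secretory granules, was detected on all 4 scrambled arrays and on neither mir128 array. It was at least 1.34-fold lower against shScr1 (adjusted p = 0.0681) and at least 1.44-fold lower against shScr2 (adjusted p = 0.0454). It passed the filter only through the scrambled arrays, so its being lower is fixed by that. The bound sets a probe at background to the lowest detected level of its array.

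Slc30a1, the zinc exporter of the cell surface, differed in sign between the comparisons. Its log2 level was 6.50 and 6.44 on the shScr1 arrays, 5.36 and 5.46 on the shScr2 arrays, and 5.79 and 5.97 on the mir128 arrays. The mir128 arrays lay between the scrambled groups, which did not overlap. The change was −0.59 ± 0.16 against shScr1 (adjusted p = 0.0403) and 0.47 ± 0.16 against shScr2 (adjusted p = 0.0813), and shScr2 minus shScr1 was −1.06 (adjusted p = 0.0824). Fitted on the 4 scrambled arrays alone, that difference had an adjusted p = 0.0303. The iron and copper importers Slc11a2, at 0.59 ± 0.20 and 0.53 ± 0.20, and Slc31a1, at −0.22 ± 0.25 and −0.21 ± 0.25, passed against neither group. Nor did the zinc transporters Slc39a1 (0.64 and 0.11), Slc39a14 (0.07 and 0.04) and Slc30a4 (−0.38 and −0.11).

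Of 12 sugar transporters, 3 were higher and 1 lower against shScr1, and 3 were higher and 0 lower against shScr2. Against both, 2 were higher (8.61% among all genes). The medians were 0.03 and 0.13. Slc2a10 encodes GLUT10, whose loss in humans causes arterial tortuosity syndrome. Its log2 level was 5.83 and 6.01 in shScr1, 6.10 and 6.16 in shScr2, and 7.94 and 7.0 in mir128. Both mir128 arrays were above the scrambled range, A by more than B. The change was 1.56 ± 0.30 against shScr1 (adjusted p = 0.0163) and 1.34 ± 0.30 against shScr2 (adjusted p = 0.0260). A second probe of Slc2a10 gave 0.85 and 0.63 and did not pass, and the call against both groups was lost when the probes were averaged.

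Slc45a3, a sugar and proton transporter first described in prostate, was at 5.77 and 5.68 in shScr1, 5.59 and 5.47 in shScr2, and 7.03 and 6.57 in mir128. The groups did not overlap. It was 2.11-fold higher against shScr1 (1.07 ± 0.20; adjusted p = 0.0138) and 2.42-fold higher against shScr2 (1.28 ± 0.20; adjusted p = 0.00875). The glucose transporters of most cells did not pass. Slc2a1 (GLUT1), from 10.01 to 10.46 across the 6 arrays, had changes of 0.17 ± 0.20 and 0.07 ± 0.20, and Slc2a3 (GLUT3), from 6.34 to 6.76, had −0.02 ± 0.19 and −0.05 ± 0.19.

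Slc50a1, a sugar efflux transporter of the SWEET family, fell against shScr1 (−0.98 ± 0.22; adjusted p = 0.0242) and stood at −0.49 ± 0.22 against shScr2 (adjusted p = 0.160). Slc2a8, the intracellular transporter GLUT8, was at 6.49 and 6.44 in shScr1, 5.76 and 5.67 in shScr2, and 6.50 and 6.30 in mir128. The mir128 arrays overlapped shScr1 and lay above shScr2, with changes of −0.06 ± 0.16 (adjusted p = 0.805) and 0.68 ± 0.16 (adjusted p = 0.0288). A second Slc2a8 probe, detected on 3 arrays, gave 0.01 against shScr1 and −0.00022 against shScr2, so the call rests on 1 of 2 probes. Slc5a4a, of the sodium and glucose cotransporter family, was detected on both mir128 arrays and on no scrambled array. It was at least 1.18-fold higher against each group (adjusted p = 0.0402 and 0.0745).

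Mitochondrial carriers, the Slc25 family of the inner membrane, gave 27 tested genes, with calls on both sides. Against shScr1, 3 were higher and 4 lower, and against shScr2, 3 and 3. Against both groups, 2 were higher and 3 lower (8.61% and 7.37% among all genes). The medians were −0.15 and −0.10. All 5 genes called against both groups had non-overlapping levels, as had the other solute carrier genes so called. The calls come from the same arrays, so this adds no support to them.

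Slc25a14, a carrier also known as UCP5, was at 6.78 and 6.52 in shScr1, 6.69 and 6.55 in shScr2, and 5.32 and 5.63 in mir128. It fell by 1.18 ± 0.19 on the log2 scale against shScr1 (adjusted p = 0.00904) and by 1.15 ± 0.19 against shScr2 (adjusted p = 0.0102). Slc25a10 carries dicarboxylates such as malate and succinate. It was at 7.98 and 8.12 in shScr1, 7.99 and 7.91 in shScr2, and 6.73 and 7.21 in mir128. The change was −1.08 ± 0.20 (adjusted p = 0.0149) and −0.98 ± 0.20 (adjusted p = 0.0202). Slc25a15, the ornithine carrier of the urea cycle, ran from 7.56 to 7.97 over the scrambled arrays and was at 6.99 and 6.75 in mir128, with changes of −0.78 ± 0.18 (adjusted p = 0.0248) and −1.02 ± 0.18 (adjusted p = 0.0114). Its second probe gave −0.69 and −0.92 and passed against shScr2.

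Slc25a16, implicated in coenzyme A transport, was at 7.88 and 7.45 in shScr1, 7.56 and 7.48 in shScr2, and 8.76 and 8.39 in mir128. It rose by 0.91 ± 0.22 (adjusted p = 0.0287) and 1.06 ± 0.22 (adjusted p = 0.0195). Slc25a33, which carries pyrimidine nucleotides, ran from 7.64 to 7.92 over the scrambled arrays and was at 8.42 and 8.54 in mir128. It rose by 0.69 ± 0.17 (adjusted p = 0.0330) and 0.70 ± 0.17 (adjusted p = 0.0322). The 3 falls and Slc25a16 were lost when arrays were scaled to a common median. Slc25a33, Slc25a10, Slc25a15 and Slc25a16 were lost when only the arrays of the groups compared were fitted, and all 5 kept their sign.

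Another 3 carriers passed against 1 group. Slc25a20, which carries acylcarnitines for fat oxidation, stood at 0.71 ± 0.17 against shScr1 (adjusted p = 0.0274) and 0.37 ± 0.17 against shScr2 (adjusted p = 0.155). Its second probe went the other way, at −0.27 and −0.19, and did not pass. Slc25a11, the oxoglutarate and malate carrier, stood at −0.67 ± 0.18 (adjusted p = 0.0391) and −0.49 ± 0.18 (adjusted p = 0.0965), and all 3 of its probes passed lower against shScr1. Slc25a47 stood at 0.57 ± 0.19 (adjusted p = 0.0714) and 0.72 ± 0.19 (adjusted p = 0.0394). Carriers of bulk energy metabolism did not pass: the ADP/ATP carrier Slc25a5 had −0.31 ± 0.18 and −0.24 ± 0.18, the phosphate carrier Slc25a3 −0.32 ± 0.23 and −0.33 ± 0.23, and the citrate carrier Slc25a1 −0.44 ± 0.21 and −0.07 ± 0.21.

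Among amino acid and peptide transporters, the genes that passed against one scrambled group did not pass against the other. Of 28 genes, 1 was higher and 3 lower against shScr1, and 3 were higher and 1 lower against shScr2. Against both, 0 of the 28 passed (8.61% higher and 7.37% lower among all genes). The medians were 0.21 and −0.01. Slc6a9, the glycine transporter GLYT1, was at 8.73 and 8.67 in shScr1, 7.48 and 7.58 in shScr2, and 8.91 and 9.03 in mir128. The mir128 arrays were above both groups, close to shScr1 and far from shScr2. The change was 0.26 ± 0.15 against shScr1 (adjusted p = 0.260) and 1.44 ± 0.15 against shScr2 (adjusted p = 0.00332), and shScr2 minus shScr1 was −1.18 (adjusted p = 0.0753). Fitted on the scrambled arrays alone, that difference between controls had an adjusted p = 0.0243.

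Slc1a4, which exchanges alanine, serine and cysteine, was at 8.05 and 8.24 in shScr1, 7.30 and 6.95 in shScr2, and 8.86 and 8.08 in mir128. The mir128 arrays overlapped shScr1 and lay above shScr2. The changes were 0.32 ± 0.28 (adjusted p = 0.454) and 1.34 ± 0.28 (adjusted p = 0.0215). Slc7a11, the cystine and glutamate exchanger that feeds glutathione synthesis, was at 5.66 and 6.07 in shScr1, 5.52 and 4.39 in shScr2, and 7.09 and 6.55 in mir128. The mir128 arrays were above all scrambled arrays. The changes were 0.96 ± 0.39 (adjusted p = 0.128) and 1.87 ± 0.39 (adjusted p = 0.0211), and the gene was detected on 1 of the 2 shScr2 arrays. The differences between the scrambled groups did not pass in either gene (−1.02, adjusted p = 0.242, and −0.91, adjusted p = 0.452).

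Slc7a5 encodes LAT1, the importer of leucine and other large neutral amino acids. It was at 12.30 and 12.46 in shScr1, 11.64 and 11.68 in shScr2, and 10.98 and 11.64 in mir128. Its mir128 A array was below all scrambled arrays, and mir128 B was just under the shScr2 arrays. The changes were −1.07 ± 0.24 against shScr1 (adjusted p = 0.0235) and −0.35 ± 0.24 against shScr2 (adjusted p = 0.330). Slc3a2, its heavy-chain partner, stood at −0.12 ± 0.24 and −0.26 ± 0.24 and passed against neither.

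Slc1a5, the glutamine exchanger ASCT2, was at 5.97 and 5.65 in shScr1, 4.55 and 5.02 in shScr2, and 4.32 and 4.69 in mir128. It was detected on both shScr1 arrays, 1 shScr2 array and no mir128 array. It was at least 2.06-fold lower in mir128 than in shScr1 (adjusted p = 0.0133) and at least 1.01-fold lower than in shScr2 (adjusted p = 0.430). It too passed the filter only through scrambled arrays, which fixes its being lower in mir128. Slc7a2, an importer of arginine and other cationic amino acids, stood at −0.82 ± 0.18 against shScr1 (adjusted p = 0.0235) and −0.39 ± 0.18 against shScr2 (adjusted p = 0.169). Slc15a4, a histidine and peptide transporter of lysosomes, stood at 0.75 ± 0.16 (adjusted p = 0.0210) and 0.22 ± 0.16 (adjusted p = 0.351). Slc36a1, which exports small amino acids from lysosomes, stood at −0.58 ± 0.20 (adjusted p = 0.0839) and −0.74 ± 0.20 (adjusted p = 0.0448).

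Other amino acid transporters passed against neither group. Slc38a2 (SNAT2), a glutamine and alanine importer, was at 9.40 on mir128 A and 10.94 on mir128 B, on either side of the scrambled range of 10.17 to 10.63, with changes of −0.44 ± 0.45 and 0.01 ± 0.45. Without mir128 B its change against shScr2 was −0.76 and passed (adjusted p = 0.0147), so the direction rests on that array. Slc6a6, the taurine transporter, ran from 10.73 to 11.44 over the 6 arrays (0.31 ± 0.16 and −0.28 ± 0.16). Slc7a1 (−0.23 ± 0.26 and −0.32 ± 0.26) and Slc38a1 (−0.16 ± 0.41 and −0.35 ± 0.41) were detected on 1 array of each group. Slc38a11, a family member of the glutamine transporters, was detected on both mir128 arrays and no scrambled array, at least 1.19-fold higher against each group (adjusted p = 0.0622 and 0.150). Slc1a3 was detected on no array and was not tested.

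**Figure D3:**
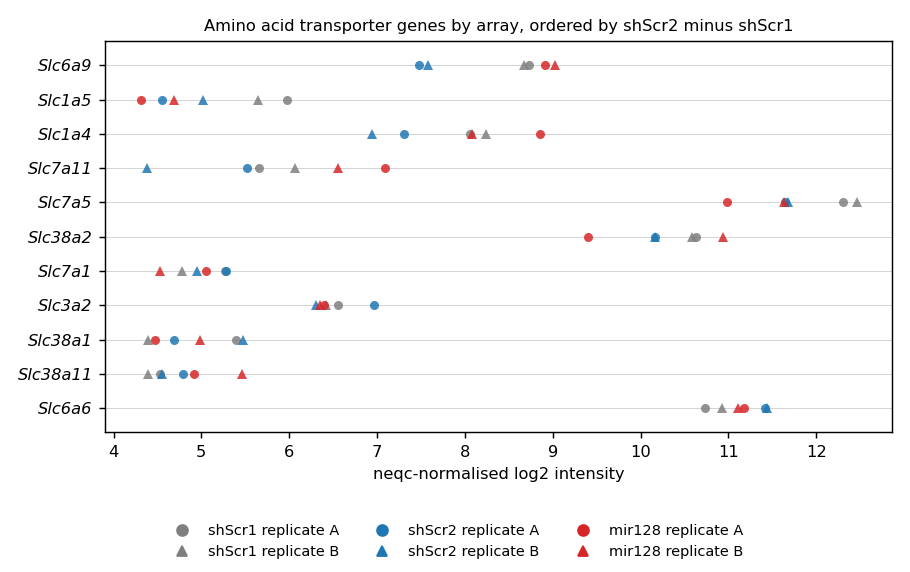
The points give the log2 normalised intensity (horizontal axis) of 11 amino acid transporters, a row each, on the 6 arrays, with the 3 groups in separate colours and replicates A and B as circles and triangles. Slc6a9 and Slc1a4 are lowest on the shScr2 arrays and Slc7a5 is highest on the shScr1 arrays, and a level is compared between arrays for 1 gene, not between genes.

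Transporters of inorganic ions gave 20 tested genes, 4 of them higher and 0 lower against shScr1, and 4 higher and 1 lower against shScr2. The same 4 genes were higher against both, and 0 lower (8.61% and 7.37% among all genes). Slc9a7 and Slc12a1, which are among the 4, passed the filter only through the mir128 arrays, which fixes their being higher. The medians of the 20 genes were 0.22 and 0.21, or 0.20 and 0.20 with genes at background set to their bound. Slc24a3 exchanges sodium for calcium and potassium. It was at 6.84 and 6.75 in shScr1, 6.17 and 6.83 in shScr2, and 7.82 and 8.55 in mir128, with no overlap. The change was 1.39 ± 0.31 (adjusted p = 0.0245) and 1.69 ± 0.31 (adjusted p = 0.0142). Slc12a4, the potassium and chloride cotransporter KCC1, was at 5.25 and 5.05 in shScr1, 5.38 and 5.61 in shScr2, and 6.57 and 6.84 in mir128. It rose 2.93-fold (1.55 ± 0.19; adjusted p = 0.00424) and 2.31-fold (1.21 ± 0.19; adjusted p = 0.00874).

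Slc9a7, a sodium and proton exchanger of the Golgi, and Slc12a1, the cotransporter NKCC2 known from kidney, were each detected on both mir128 arrays and no scrambled array. They passed the filter only through mir128, so their being higher is fixed by that. Slc9a7 was at least 1.26-fold higher against each group (adjusted p = 0.0190 and 0.0299), and Slc12a1 at least 1.11-fold against shScr1 and 1.10-fold against shScr2 (adjusted p = 0.0434 and 0.0387). Slc12a8 was the gene lower against shScr2 alone, at −0.38 ± 0.18 (adjusted p = 0.174) and −0.66 ± 0.18 (adjusted p = 0.0436). The phosphate transporters Slc20a1 (0.39 ± 0.51 and −0.06 ± 0.51) and Slc20a2 (−0.13 ± 0.24 and −0.39 ± 0.24), the sodium and calcium exchanger Slc8a1 (−0.16 ± 0.32 and 0.20 ± 0.32) and the cotransporter Slc12a2 (0.20 ± 0.22 and 0.25 ± 0.22) passed against neither.

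Transporters of nucleosides and nucleotide sugars had 3 genes lower and 0 higher against both groups, out of 20 (7.37% and 8.61% among all genes). Against shScr1, 2 were higher and 4 lower, and against shScr2, 1 higher and 3 lower, with medians of 0.19 and −0.04. Slc35e1, a member of the nucleotide sugar transporter family with no settled substrate, was at 9.34 and 9.35 in shScr1, 9.29 and 9.39 in shScr2, and 7.90 and 8.11 in mir128. The scrambled arrays lay close together, above both mir128 arrays. It fell by 1.35 ± 0.16 against shScr1 (adjusted p = 0.00420) and by 1.34 ± 0.16 against shScr2 (adjusted p = 0.00445). Slc35g1, of the same family, was at 7.79 and 7.60 in shScr1, 7.91 and 7.94 in shScr2, and 6.39 and 6.65 in mir128. It fell by 1.18 ± 0.17 (adjusted p = 0.00687) and 1.40 ± 0.17 (adjusted p = 0.00474).

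Slc29a1 encodes ENT1, the equilibrative transporter that takes up adenosine and other nucleosides. It was at 10.72 and 10.75 in shScr1, 10.54 and 10.54 in shScr2, and 9.40 and 9.85 in mir128. The mir128 arrays were below every scrambled array. It was 2.16-fold lower against shScr1 (−1.11 ± 0.19; adjusted p = 0.0115) and 1.89-fold lower against shScr2 (−0.92 ± 0.19; adjusted p = 0.0210). Against 1 group only, Slc35e3 passed lower and Slc35c2 and Slc35a5 higher against shScr1 (−0.67, 0.83 and 0.77; fitted probe by probe, 0 of the 3 Slc35c2 probes passed), and Slc35f6 passed higher against shScr2 (0.81). Their changes against the other group were −0.44, 0.71, 0.64 and 0.59.

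The remaining transporters, of monocarboxylates, organic ions, lipids and vitamins, included the 2 genes whose calls held under every alternative run. Of 30 genes, 7 were higher and 3 lower against both groups (8.61% and 7.37% among all genes), with medians of 0.12 in each comparison. Slc46a3 encodes a transporter of the lysosomal membrane. It was at 5.37 and 5.59 in shScr1, 5.08 and 5.59 in shScr2, and 7.87 and 7.67 in mir128. Both mir128 arrays were more than 2 log2 units above every scrambled array. The change was 2.29 ± 0.22, 4.90-fold, against shScr1 (adjusted p = 0.00230) and 2.44 ± 0.22, 5.41-fold, against shScr2 (adjusted p = 0.00215). Slc22a23, an organic ion transporter without an assigned substrate, was at 5.37 and 5.23 in shScr1, 5.41 and 5.26 in shScr2, and 7.89 and 7.35 in mir128. It rose by 2.32 ± 0.22 (adjusted p = 0.00227) and 2.29 ± 0.22 (adjusted p = 0.00226). Slc46a3 and Slc22a23 kept their calls under all 14 alternatives run, and Slc16a4 under 13 of 14.

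Monocarboxylate transporter relatives followed. Slc16a4 was at 5.76 and 6.06 in shScr1, 5.11 and 5.36 in shScr2, and 7.41 and 7.68 in mir128. It was 3.10-fold higher against shScr1 (1.63 ± 0.20; adjusted p = 0.00424) and 4.96-fold higher against shScr2 (2.31 ± 0.20; adjusted p = 0.00192). Slc16a9, described in humans as a carnitine transporter, ran from 5.39 to 6.28 over the scrambled arrays and was at 7.57 and 7.36 in mir128, with changes of 1.77 ± 0.23 (adjusted p = 0.00519) and 1.27 ± 0.23 (adjusted p = 0.0139). The groups did not overlap in either gene. Slc16a1 was detected on no array and Slc16a3 on 1, so these lactate transporters were not tested.

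The 2 folate importers passed on opposite sides. Slc46a1, the proton-coupled folate transporter, ran from 5.83 to 6.23 over the scrambled arrays and was at 7.41 and 7.16 in mir128, with changes of 1.16 ± 0.20 (adjusted p = 0.0114) and 1.27 ± 0.20 (adjusted p = 0.00916). Slc19a1, the reduced folate carrier, was at 10.26 and 10.39 in shScr1, 10.42 and 10.46 in shScr2, and 9.41 and 9.54 in mir128. It fell by 0.85 ± 0.16 (adjusted p = 0.0138) and 0.96 ± 0.16 (adjusted p = 0.00973). Both mir128 arrays lay on one side of all scrambled arrays in each gene. Slc52a3, a riboflavin transporter, rose by 1.29 ± 0.18 (adjusted p = 0.00608) and 0.64 ± 0.18 (adjusted p = 0.0488), from 4.68 to 5.60 over the scrambled arrays to 6.10 and 6.17. It was detected on 1 of the 2 shScr1 arrays, so the change against that group rests partly on a background level. Slc14a1, the urea transporter UT-B, was detected on both mir128 arrays and on no scrambled array, at least 1.52-fold higher against each group (adjusted p = 0.00776 and 0.0239). It too passed the filter only through mir128, as did Slc5a4a and Slc38a11.

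Slc10a7 fell by 0.85 ± 0.19 (adjusted p = 0.0232) and 0.67 ± 0.19 (adjusted p = 0.0475), and Slc22a18, an imprinted member of the organic ion transporters, fell by 0.66 ± 0.17 (adjusted p = 0.0382) and 0.65 ± 0.17 (adjusted p = 0.0426). Slc23a3 was higher against shScr2 alone, at 0.47 ± 0.18 (adjusted p = 0.106) and 0.98 ± 0.18 (adjusted p = 0.0134). Slc44a2, a choline transporter-like protein, stood at −0.32 ± 0.15 and 0.11 ± 0.15 and passed against neither. Of the 4 genes that are not transporters, Slc4a1ap (0.86) and Slc9a3r2 (−0.65) passed against shScr1, and 0 passed against shScr2.

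**Figure D4:**
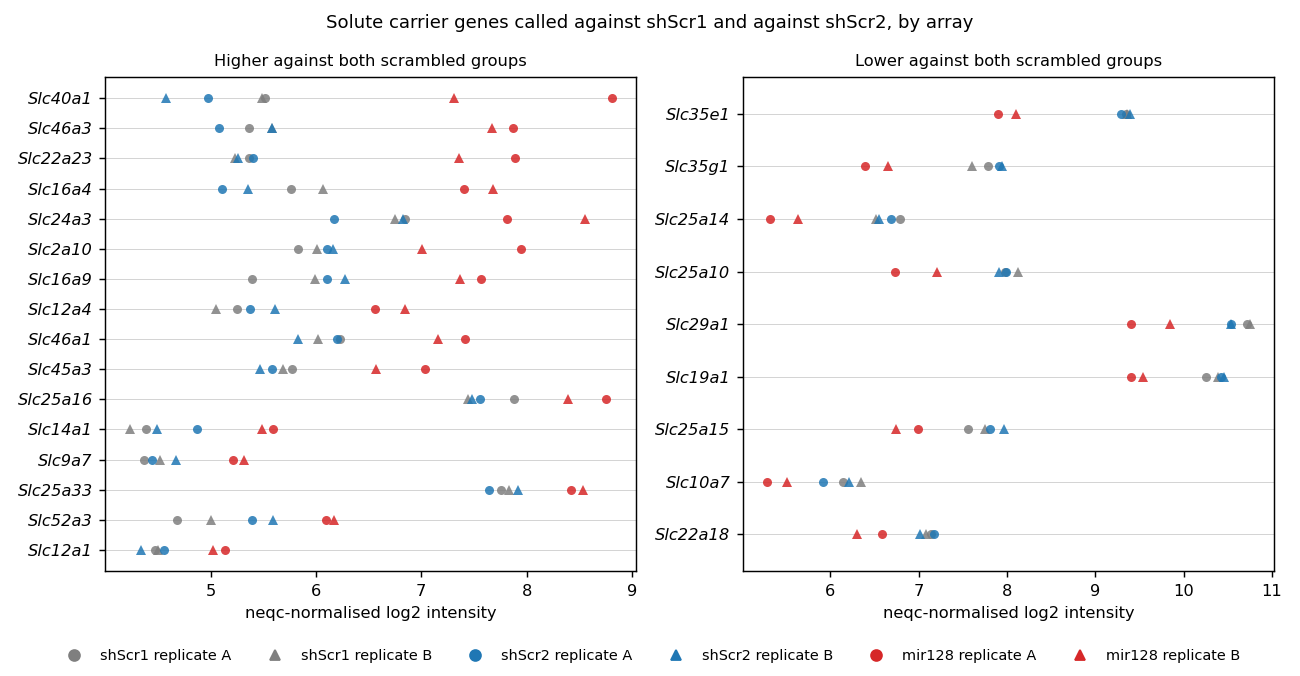
The points give the log2 normalised intensity of the genes called against both scrambled groups on each of the 6 arrays, coloured by group. Slc14a1, Slc9a7 and Slc12a1 were not detected on the scrambled arrays. In each gene both mir128 points lie on one side of the 4 scrambled points, and levels are compared within a gene only.

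**Figure D5:**
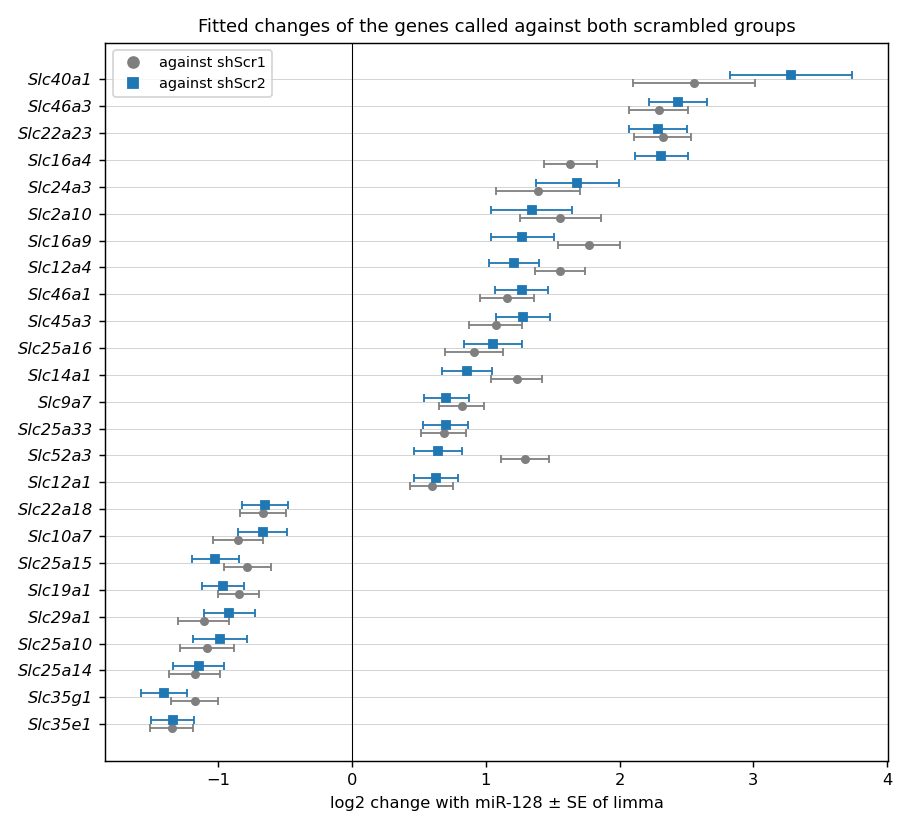
The points give the log2 change (horizontal axis) of the genes called against both scrambled groups, with bars of 1 SE, against shScr1 and shScr2. Slc40a1 has the widest bars (SE 0.45), and the changes run from −1.40 in Slc35g1 against shScr2 to 3.28 in Slc40a1 against shScr2.

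Promoters of 131 of the 164 genes were matched to RefSeq windows (GRCm38.p6), from 250 bases before to 50 after the start site. Letters of the antioxidant response element, TGACNNNGC, were searched on both strands, as were those of the CEBP-ATF response element, TGATGNAA, because stress responses through these elements are known to act on cystine and neutral amino acid transporters. A TGACNNNGC match was in 12.4% of all 32851 windows and 20% of 175 windows of solute carrier genes past the filter. All windows include genes not past the filter, so the sets are unlike, here and in the counts by gene. The share among all genes past the filter was not counted. Counted by gene, 14% of all genes, 22.9% of the 131 solute carrier genes, 3 of 13 genes higher against both groups and 3 of 9 lower had at least 1 window with a match. TGATGNAA was in 3.97% of all windows and 6 of the 175, and in 0 of the higher or lower genes. Matches are letters in a window and say nothing of binding. The windows of Slc46a3, a gene higher against both groups, and of Slc7a11 and Slc1a4, which passed against shScr2, are shown because each holds a match, in capitals. They were chosen after the search.
Slc46a3, chr5:147894766-147895065, minus strand: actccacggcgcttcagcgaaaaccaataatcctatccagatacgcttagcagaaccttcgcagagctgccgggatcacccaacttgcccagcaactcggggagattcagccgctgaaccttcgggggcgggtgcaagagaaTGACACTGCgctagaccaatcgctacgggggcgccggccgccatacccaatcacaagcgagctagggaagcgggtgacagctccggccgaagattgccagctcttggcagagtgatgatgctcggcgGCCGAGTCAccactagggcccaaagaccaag
Slc7a11, chr3:50443564-50443863, minus strand: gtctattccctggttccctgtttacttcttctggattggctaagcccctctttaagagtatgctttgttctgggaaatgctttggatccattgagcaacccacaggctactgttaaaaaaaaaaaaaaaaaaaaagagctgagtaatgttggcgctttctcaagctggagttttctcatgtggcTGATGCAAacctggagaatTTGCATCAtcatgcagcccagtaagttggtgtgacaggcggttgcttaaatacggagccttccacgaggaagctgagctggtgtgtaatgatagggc
Slc1a4, chr11:20332664-20332963, minus strand: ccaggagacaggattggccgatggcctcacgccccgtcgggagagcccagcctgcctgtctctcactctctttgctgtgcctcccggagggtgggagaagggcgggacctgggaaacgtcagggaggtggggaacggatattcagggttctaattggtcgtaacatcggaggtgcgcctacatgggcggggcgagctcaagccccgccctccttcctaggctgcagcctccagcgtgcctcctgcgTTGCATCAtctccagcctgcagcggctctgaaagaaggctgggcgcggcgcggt
The TGACNNNGC matches of Slc46a3 begin at −108 and 19 bases from the start site, counted as 0, and the TGATGNAA matches of Slc7a11 at −66 and −47 and of Slc1a4 at −4.

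Probes of one gene did not always agree. Of 36 genes with several probes past the filter, 14 had at least 1 probe that passed in either comparison, fitted probe by probe, and 0 had probes that passed on opposite sides. In Slc9a8, an intracellular sodium and proton exchanger, the brightest probe gave 0.53 and 0.77 and did not pass, while the other probes gave −1.55 and −1.17 against shScr1 and both passed (adjusted p = 0.00609 and 0.0148). With its probes averaged, Slc9a8 was at −0.73 against shScr1 and passed (adjusted p = 0.0269), the opposite sign of its brightest probe. The gene was chosen after its values were seen.

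The counts depended on the scaling and on which arrays were fitted. A gene's spread was shared by the 3 groups, and the mir128 replicates differed more (SD 0.527) than those of shScr1 (0.283) and shScr2 (0.310). The part of this in the counts was not tested. Scaled to a common median, all genes together had median changes of 0.15 and 0.23. The split of the solute carriers went to 18 higher and 7 lower against shScr1 and 27 higher and 4 lower against shScr2. Of all genes tested, 905 were then higher and 443 lower against shScr1, and 1266 and 345 against shScr2. With the scaling used elsewhere, all genes gave 1107 and 961, and 1080 and 910. The fall in lower counts was shared by all genes, so it is no result about transporters. The counts that follow are of solute carriers alone and say nothing of transporters as a class. Without shScr1 A, shScr1 B, shScr2 A or shScr2 B, the genes higher against both groups numbered 4, 4, 5 and 4, and those lower 0, 0, 2 and 2. Without mir128 B they numbered 25 and 15. With a common median, 3 of the 9 genes lower against both kept the call: Slc29a1, Slc35e1 and Slc35g1. The calls against both groups of Slc52a3, Slc12a1 and Slc10a7 held in 3 of 13, 4 of 13 and 4 of 14 alternatives run, and those of the genes not given here or above in 6 to 12.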

How the data were processed

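Per the file headers, the deposited non-normalized table pairs an intensity with a detection p-value for every probe and array; the intensities are linear and were not matched between arrays. A further deposited table holds log2-like values that the authors had processed. Its array medians are all 7.77, its transform, centring and normalization are unknown here, and it served as an alternative only. Over 3927 bright probes an array's intensities correlated at 0.987 or more with that array's column there, and at 0.835 at most with another. The submitters' processing notes list GenomeStudio 2011.1, lumi and limma, with no role or order.

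Intensities were corrected and quantile normalised to log2 values with neqc (limma 3.58.1, R 4.3.3; offset 16), using the detection p-values. All 472 member probes matched the reference gene table by Entrez number, and 0 symbols changed. A mean per group was fitted over the 6 arrays with lmFit and eBayes (residual df 3, prior df 3.52, prior SD 0.200), and two-sided p-values were Benjamini-Hochberg adjusted across the 9010 genes. Values after ± are limma's SE. It rests on a spread per gene shared by the 3 groups, although the mir128 replicates differed more than the scrambled ones. Of paired values, the first is against shScr1 and the second against shScr2. The number of arrays limits the precision.

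Members and lists were chosen with earlier results of these data known. Named were, in each substrate group, up to 4 higher and 4 lower genes that passed against both scrambled groups (ranked by the smaller change), genes detected on all mir128 arrays and no scrambled array or the reverse, and 40 genes fixed by name. Of these 40, 31 were tested, 4 were below the filter (Slc1a3, Slc5a3, Slc16a1 and Slc16a3) and the others were not analysed here. Slc46a1, Slc52a3 and genes that completed a small count were named after their values were seen, and Slc4a1ap was then put with the genes matched by symbol alone. Alternatives changed the background correction, scaling, source of values, filter, probe rule, arrays in the fit and replicate block, and left out each array in turn.

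The fit was tested on simulated data of 9010 genes, with 50 planted at each size. For log2 changes of 0.5, 1, 2 and 3, the share found was 0%, 20%, 84% and 98% against shScr1, and 0%, 32%, 94% and 96% against shScr2. False calls numbered 3 and 9. Fewer genes were planted than were called in the data, and the adjusted threshold depends on that number, so these shares need not hold for the data.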

Additional observations from a re-analysis of the deposited data

How the results depend on the processing

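The counts of solute carriers higher and lower were 25 and 18 against shScr1, 23 and 13 against shScr2, and 16 and 9 against both. Between the scrambled groups they were 0 and 0. These counts say nothing of transporters as a class. Fitted on only the arrays of the groups compared, they were 13 and 8 against shScr1, 13 and 5 against shScr2, and 9 and 4 against both, with fewer arrays behind the spread; 3 genes were then lower in shScr2 than in shScr1 (Slc6a9, Slc30a1 and Slc2a8). With a common median, those lower were 7, 4 and 3 (Slc29a1, Slc35e1 and Slc35g1 against both). Of all genes tested, 443 were then lower against shScr1 and 345 against shScr2, where the main setting gave 961 and 910. With the authors' values, 15 solute carriers were higher against shScr2, where 997 of all genes tested were. With those values, and without background correction, 1 solute carrier, Slc6a9, was lower in shScr2 than in shScr1. Of all genes tested, 14 and 21 were lower there. The cause of the changes under the last 3 settings was not tested. Leaving out 1 array gave 4 to 35 higher and 0 to 24 lower against shScr1, 5 to 31 and 2 to 18 against shScr2, 4 to 25 and 0 to 15 against both, and 0 to 3 lower between the scrambled groups.

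With the replicate letter as a replicate block, 23 solute carriers were higher and 19 lower against shScr1, and 25 and 13 against shScr2. Against both, 18 and 10 passed. All genes then gave 1083 and 954 against shScr1, and 1035 and 893 against shScr2. The letters' deviations correlated at 0.119 to 0.150, and the labels give the letters no other meaning. Leaving out 1 array put Slc38a2 against shScr2 at −0.76 (without mir128 replicate B) to 0.77 (without mir128 replicate A), where all arrays gave 0.01, and the mean over probes put Slc9a8 against shScr1 at −0.73, where the brightest probe gave 0.53. Of the other results for single named genes under an alternative, 1666 kept their direction and side of the threshold or passed under neither setting, 377 no longer passed and 49 newly passed. Every gene called against both groups kept its sign in all alternatives run for it.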

Other observations

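The replicates of mir128 differed by more than 1 on the log2 scale in 6 of the 164 genes. Slc6a8, the creatine transporter, was at 9.48 on mir128 A and 8.10 on mir128 B, on either side of its scrambled arrays at 8.64 to 9.01. Slc39a8, a zinc and manganese importer, was at 4.90 and 6.12, Slc44a4 at 4.64 and 5.71, and Slc7a6, a cationic and neutral amino acid exchanger, at 7.83 and 6.80. The others were Slc38a2 and Slc40a1, given above. In Slc38a2 the 3 probes did not follow each other: the brightest read 9.40 on mir128 A and 10.94 on mir128 B, while another read 9.56 and 8.49.

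Slc44a2 had 1 probe that passed against shScr1, at −1.27 (adjusted p = 0.0293, fitted probe by probe), beside −0.32 for its brightest probe and −0.08 for the third. That probe was at 5.13 and 6.00 on the mir128 arrays and at 6.23 to 6.93 on the scrambled arrays.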
